A study of Mus musculus with 7 samples.

Results

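Claudins are the membrane proteins that build tight junctions, the belts by which neighbouring epithelial cells close the space between them. Some claudins tighten that seal, whereas others line it with pores that let chosen ions through, so the mix of claudins in a cell sheet sets how leaky the sheet is. In the enamel organ, the ameloblasts, which lay down enamel, stand in a sheet joined by such junctions at both cell ends. The members described here are 10 claudin genes taken by symbol from the 25700 genes counted in each library, namely Cldn1, Cldn3, Cldn4, Cldn6, Cldn7, Cldn8, Cldn10, Cldn12, Cldn20 and Cldn23. All 10 were found, each under a single Ensembl identifier.

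The libraries are bulk RNA from the posterior dental epithelium of lower incisors of newborn (PN0) pups, separated with Dispase, with the left and right incisor of a pup pooled into 1 library. The label K14cre cre/+; Nogo-A fl/fl is carried by 4 of them, below called K14;Nogo-A (pups 1, 2, 7 and 10 by replicate number), and the other 3 are labelled wt, below wild-type (pups 3, 8 and 9). The study counted 4 wild-type pups, of which 1 was not analysed here. In the K14;Nogo-A pups a Cre recombinase under the keratin 14 promoter, active in epithelia, deletes the floxed Nogo-A form of Rtn4, so Cre itself and the deletion cannot be told apart in this comparison. All pups were collected at the same age, and the study calls the controls littermates.

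Rtn4 itself was at 297, 344, 328 and 340 CPM (counts scaled to a common library size by TMM) in K14;Nogo-A pups 1, 2, 7 and 10 and at 281, 277 and 346 CPM in wild-type pups 3, 8 and 9. These counts cover the whole gene, with its forms that the deletion leaves intact, so they check no genotype. The libraries held 20929207 to 41219439 counts on genes. K14;Nogo-A pup 1 and wild-type pups 3 and 8 had summed levels of Ddx3y, Eif2s3y, Kdm5d and Uty of 159 to 189 CPM, against 0.0349 to 0.309 CPM in the other 4 libraries. Of the epithelial list, 12 of 12 markers were counted, with a summed level of 9574 to 11372 CPM in the mutant libraries and 7052 to 11241 CPM in the controls. The mesenchyme list was present as well, also with 12 of 12 counted, at 11043 to 33071 CPM and at 26109 to 41036 CPM, respectively. Its summed CPM, which also depends on transcript length, exceeded that of the epithelial list in every library but K14;Nogo-A pup 2. Per kilobase of exon, the epithelial sum was the higher one in K14;Nogo-A pups 2, 7 and 10. It was 4797, 4941 and 4985 there, against 1631, 1783 and 2852 for the mesenchyme list. In K14;Nogo-A pup 1 and the wild-type pups the mesenchyme sum stayed higher. Being counted therefore does not by itself check the tissue label.

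What makes these genes claudins can be read in their coding sequences. A claudin's first loop outside the cell carries a glycine, leucine and tryptophan followed by a pair of cysteines, and the stretch from the glycine codon to the last cysteine codon is shown for each member, 5′ to 3′, with the codons of these residues in capitals (GENCODE M21 transcripts, GRCm38).
Cldn1: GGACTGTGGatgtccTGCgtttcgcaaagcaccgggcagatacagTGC
Cldn3: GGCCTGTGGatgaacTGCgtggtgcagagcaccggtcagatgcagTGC
Cldn4: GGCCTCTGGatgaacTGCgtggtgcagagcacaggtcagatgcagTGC
Cldn6: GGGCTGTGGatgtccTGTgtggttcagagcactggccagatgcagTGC
Cldn7: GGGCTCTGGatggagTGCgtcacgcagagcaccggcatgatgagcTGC
Cldn8: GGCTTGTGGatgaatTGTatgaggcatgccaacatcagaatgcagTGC
Cldn10: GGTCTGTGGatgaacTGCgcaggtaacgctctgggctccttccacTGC
Cldn12: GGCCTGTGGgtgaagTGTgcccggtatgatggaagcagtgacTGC
Cldn20: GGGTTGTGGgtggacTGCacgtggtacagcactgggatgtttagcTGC
Cldn23: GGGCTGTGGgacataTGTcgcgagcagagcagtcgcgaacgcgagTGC

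The stretch began at base 136 to 157 of the coding sequence in the forms shown, counted from 1 at the A of the start codon. Cldn3 and Cldn4, which are neighbours on chromosome 5 with 39279 bp between them, had nearly the same letters here. Cldn12 had 8 codons between the cysteines and the other members had 9. Cldn10 has 3 complete annotated coding forms. The longest of them, of 696 bp, did not hold these letters, and the 690-bp and 582-bp forms gave the stretch shown. Cldn7 has 3 complete annotated coding transcripts, and that of 387 bp held no such stretch. A count over the gene adds all forms together.

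The end of the coding sequence is the other hallmark. Most claudins end in tyrosine and valine, to which the scaffold proteins of the ZO family dock, and the last 5 codons before the stop are shown with the final pair in capitals.
Cldn1: gggaaagacTATGTG
Cldn3: cgcaaggacTACGTC
Cldn4: gccagcaacTATGTG
Cldn6: accaagaatTATGTG
Cldn7: tccaaggaaTACGTG
Cldn8: aaaagtcagTATGTG
Cldn10: aaaaatgccTATGTC
Cldn12: gtctcacacAGCACT
Cldn20: ttgaaggatTACATG
Cldn23: tgtgactccGACCTG

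A tyrosine codon followed by a valine codon closed the sequences of Cldn1, Cldn3, Cldn4, Cldn6, Cldn7, Cldn8 and Cldn10, and was not found in Cldn12, Cldn20 and Cldn23. No stretch of 50 bases of any member's transcripts was shared with a transcript of another gene, on either strand, so the counts of the members are not mixed with those of a near-identical copy.

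The 10 claudins covered a wide span of transcript levels per length. Expressed as RPKM (CPM per kilobase of exon, the scale on which genes are compared here), the means over the 7 libraries were 39.2 for Cldn20, 35.3 for Cldn1 and 32.9 for Cldn10, then 13.95 for Cldn6, 11.6 for Cldn4 and 7.14 for Cldn12. Lower still were Cldn8 at 3.42, Cldn7 at 1.87, Cldn3 at 0.501 and Cldn23 at 0.163 RPKM. Over the libraries of both genotypes together, the ranges of Cldn20 (11.03 to 75.3 RPKM), Cldn1 (18.3 to 61.3) and Cldn10 (24.8 to 39.8) overlapped. Cldn6 (12.3 to 15.5) and Cldn4 (8.05 to 15.1) overlapped as well. Every other step, from Cldn10 to Cldn6, from Cldn4 to Cldn12 and from there down to Cldn23, was between ranges without overlap. The order of Cldn20, Cldn1 and Cldn10 differed between the genotypes. Their means were 53.8, 44.4 and 36.8 RPKM in K14;Nogo-A and 19.7, 23.1 and 27.8 RPKM in wild-type. Cldn10 was above Cldn20 in every wild-type library and in K14;Nogo-A pup 1, and below it in K14;Nogo-A pups 2, 7 and 10. The annotated exon of Cldn20 is its coding length of 660 bp with no untranslated part, which bears on its rank but not on its comparison between genotypes. With the longest transcript in place of all exons, Cldn1 came to 41.2, Cldn10 to 40.1, Cldn12 to 8.04 and Cldn7 to 2.73 RPKM. On that scale Cldn1 and Cldn10 lay above Cldn20, which remained at 39.2.

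**Figure D1:**
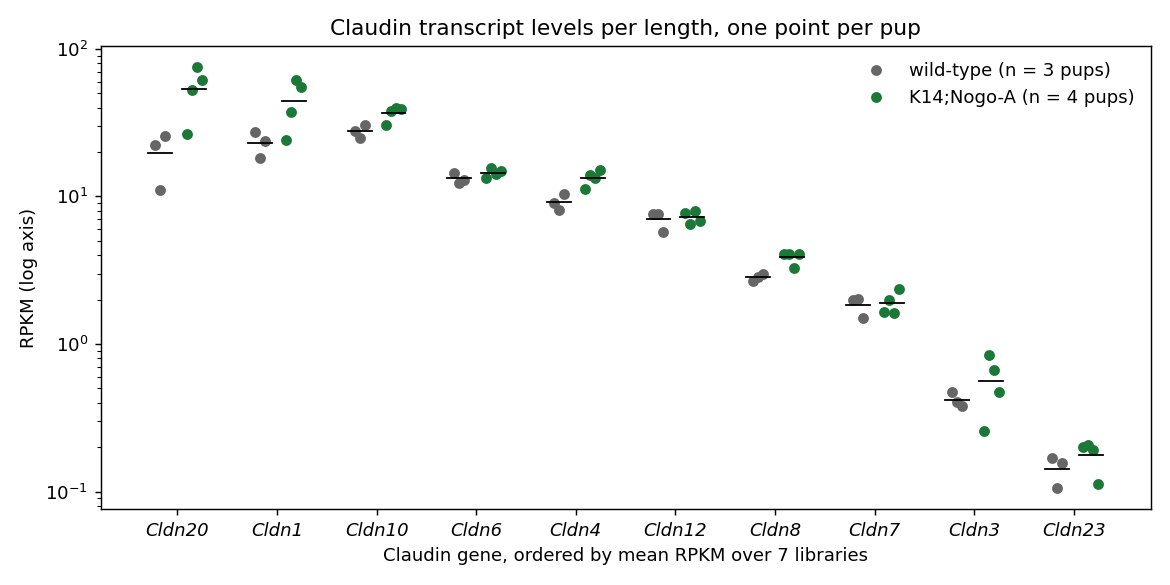
RPKM of each claudin (vertical log axis) by gene, with wild-type in grey (n = 3 pups) and K14;Nogo-A in green (n = 4 pups); points are pups and short lines the genotype means. Cldn20, Cldn1 and Cldn10 lie highest, with Cldn23 lowest at 0.105 to 0.206 RPKM.

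By counts, which also depend on transcript length, Cldn1 made up the largest share of the summed CPM of the 10 genes, 37.1% to 54.5%. Cldn10 followed with 19.0% to 27.7%. These shares do not rank the genes per length. The sum itself was 302, 544, 506 and 406 CPM in K14;Nogo-A pups 1, 2, 7 and 10 and 305, 239 and 287 CPM in wild-type pups 3, 8 and 9. K14;Nogo-A pups 2, 7 and 10 were above every wild-type library, and pup 1 lay within the wild-type range.

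The comparison of K14;Nogo-A with wild-type addresses which transcripts differ in epithelium that carries the deletion. The study called genes at an unadjusted P no higher than 0.05 and a log2 fold change of 0.5 or more in either direction. At these, Cldn1, Cldn4 and Cldn20 were higher in K14;Nogo-A and no claudin was lower. These are 3 of the 9 members tested, where 2.02% of all 14791 genes tested were higher and 2.74% lower at the same thresholds. At an adjusted p under 0.05 (edgeR's quasi-likelihood test, Benjamini-Hochberg over all genes), 0 members were called, and 0.0338% of all genes were. With p unadjusted and under 0.05, 5 members were higher and 0 lower, against 6.25% and 6.66% of all genes. By edgeR's likelihood-ratio test 1 member was called higher, against 0.392% of all genes, by DESeq2 1, against 1.00%, and by limma-voom 0. All 9 had a positive log2 fold change, against 48.5% of all genes, and their median was 0.41, against -0.01 over all genes. The 9 tested members passed the filter on low counts in both genotypes, and Cldn23 passed it in neither.

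**Figure D2:**
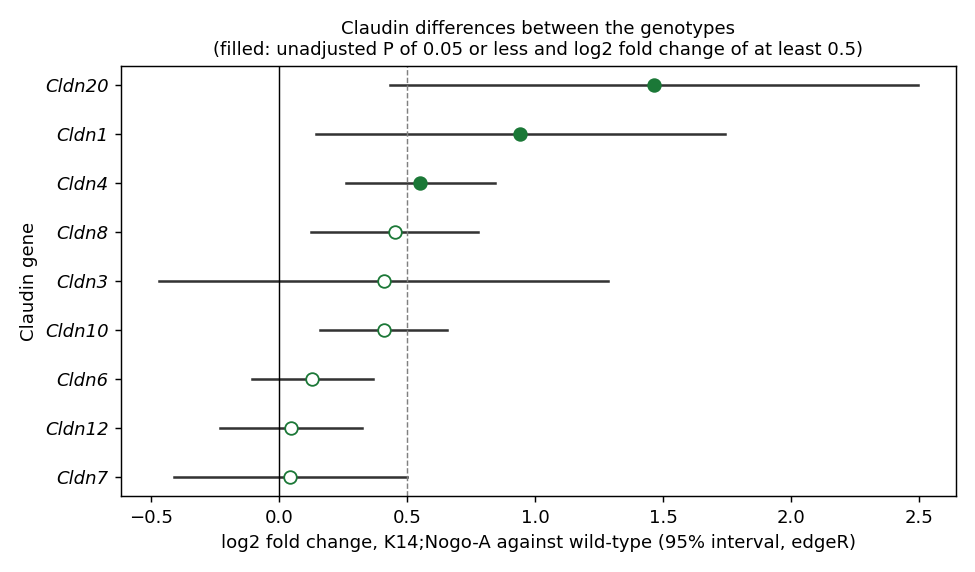
Log2 fold change of K14;Nogo-A against wild-type (horizontal axis) for the 9 claudins tested, with 95% intervals from the edgeR fit. Filled points are the 3 past the study's thresholds, Cldn20 at 1.46, Cldn1 at 0.94 and Cldn4 at 0.55; the dashed line marks 0.5.

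Of the claudins known for tightening the seal, Cldn1 and Cldn4 were past the thresholds. Cldn1 (ENSMUSG00000022512, chromosome 16 of GRCm38, 26356642 to 26371841, minus strand), the claudin without which mouse skin loses its water barrier, was at 116, 297, 267 and 179 CPM in K14;Nogo-A pups 1, 2, 7 and 10. In wild-type pups 3, 8 and 9 it was at 133, 88.7 and 114 CPM. Replicates 2, 7 and 10 were above all wild-type libraries, while pup 1 was below wild-type pup 3, so the groups overlapped. The means were 215 ± 82.7 CPM (SD, n = 4) and 112 ± 22.2 CPM (SD, n = 3), and the log2 fold change was 0.94 (standard error 0.34, 95% interval 0.14 to 1.74, adjusted p = 0.32 from edgeR). Within K14;Nogo-A the spread of Cldn1 was 38.5% of its mean, against 19.9% in wild-type. Cldn1 did not pass the thresholds without K14;Nogo-A pup 7 (0.82), wild-type pup 8 (0.80) or wild-type pup 9 (0.97).

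Cldn4 (ENSMUSG00000047501, chromosome 5, 134945119 to 134946934, minus strand), a single-exon gene whose protein limits the passage of ions between cells, showed less spread. It was at 20.4, 24.2, 27.4 and 25.2 CPM in K14;Nogo-A pups 1, 2, 7 and 10 and at 16.4, 14.6 and 18.9 CPM in wild-type pups 3, 8 and 9. Every K14;Nogo-A library was above every wild-type library. Its log2 fold change was 0.55 (standard error 0.13, 95% interval 0.26 to 0.84, adjusted p = 0.18 from edgeR). The fold change was 0.49 without K14;Nogo-A pup 7 and 0.47 without wild-type pup 8, which is under the size required, although an unadjusted p under 0.05 was kept in all 7 fits with a library left out.

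Cldn8 (ENSMUSG00000050520, chromosome 16, 88560828 to 88563183, minus strand), a claudin of tight, ion-retaining epithelia such as the collecting duct, where it pairs with Cldn4, also did not overlap between the groups. It was at 9.55, 7.69, 9.63 and 9.57 CPM in K14;Nogo-A pups 1, 2, 7 and 10 and at 6.27, 6.70 and 7.06 CPM in wild-type pups 3, 8 and 9. Here pup 1 was level with the other K14;Nogo-A libraries and pup 2 lay lowest. The log2 fold change was 0.45 (standard error 0.15, 95% interval 0.13 to 0.78, adjusted p = 0.27 from edgeR), just under the size the thresholds ask for. With K14;Nogo-A pup 2 left out (0.52), or wild-type pup 9 (0.50), Cldn8 passed them. In all, Cldn4, Cldn8 and Cldn20 were the members whose K14;Nogo-A libraries all lay above wild-type, 3 of 9, where 5.43% of all genes tested did so.

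Cldn3 (chromosome 5, 134986214 to 134987472), the near neighbour of Cldn4 and, like it, a receptor of the Clostridium perfringens enterotoxin, was scarce. It had 7, 19, 17 and 28 counts in K14;Nogo-A pups 1, 2, 7 and 10 and 25, 21 and 10 counts in wild-type pups 3, 8 and 9. At this depth its log2 fold change of 0.41 had an interval from -0.47 to 1.28, which leaves neither direction out. Cldn4 had 393 to 785 counts, so these neighbours stood far apart in level.

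Cldn6 (ENSMUSG00000023906, chromosome 17, 23679249 to 23682446, plus strand), a claudin of embryonic epithelia, was among the steadiest members. It was at 22.9, 24.6, 25.6 and 26.6 CPM in K14;Nogo-A pups 1, 2, 7 and 10 and at 25.0, 21.1 and 22.3 CPM in wild-type pups 3, 8 and 9, and the groups overlapped. The log2 fold change was 0.13 with an interval from -0.11 to 0.37. Its neighbour Cldn9, which lies 137 bp beyond its end on the other strand, had at most 5 counts in any library.

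Cldn7 (ENSMUSG00000018569, chromosome 11, 69964779 to 69967885, plus strand), which also sits on the sides of epithelial cells and binds EpCAM, averaged 3.70 ± 0.676 CPM in the K14;Nogo-A pups (SD, n = 4) and 3.57 ± 0.557 CPM in the wild-type pups (SD, n = 3). Its log2 fold change was 0.04, with an interval from -0.41 to 0.50. For Epcam itself the log2 fold change was 0.04 ± 0.10 (standard error), at 175 ± 21.4 CPM (SD, n = 4) and 171 ± 6.08 CPM (SD, n = 3).

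Among the claudins that form pores, Cldn10 was the one with a high level. Cldn10 (ENSMUSG00000022132, chromosome 14, 118787908 to 118875489, plus strand) encodes forms that differ in their first exon and let through either anions or cations. It was at 79.3, 103, 101 and 97.9 CPM in K14;Nogo-A pups 1, 2, 7 and 10 and at 72.1, 64.3 and 79.4 CPM in wild-type pups 3, 8 and 9. The groups overlapped only in that K14;Nogo-A pup 1 was just below wild-type pup 9. The log2 fold change was 0.41 (standard error 0.11, 95% interval 0.16 to 0.65, adjusted p = 0.22 from edgeR), under the size the thresholds ask for, and it lay between 0.34 and 0.49 in the 7 fits with a library left out, each with an unadjusted p under 0.05.

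Cldn12 (ENSMUSG00000046798, chromosome 5, 5489537 to 5514958, minus strand), a claudin tied to calcium passage in the gut, whose tail does not end in tyrosine and valine, did not part the genotypes. It was at 32.4, 33.7, 29.0 and 27.3 CPM in K14;Nogo-A pups 1, 2, 7 and 10 and at 32.4, 32.0 and 24.3 CPM in wild-type pups 3, 8 and 9. The log2 fold change was 0.05 with an interval from -0.23 to 0.32.

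Cldn20 had the largest difference of the members tested. Cldn20 (ENSMUSG00000091530, chromosome 17, 3532554 to 3533213, plus strand) was at 17.4, 49.7, 40.2 and 34.8 CPM in K14;Nogo-A pups 1, 2, 7 and 10 and at 14.7, 7.28 and 16.95 CPM in wild-type pups 3, 8 and 9. All K14;Nogo-A libraries were above all wild-type libraries, but pup 1 exceeded wild-type pup 9 only slightly. The means were 35.5 ± 13.6 CPM (SD, n = 4) and 13.0 ± 5.07 CPM (SD, n = 3). The log2 fold change was 1.46 (standard error 0.43, 95% interval 0.43 to 2.49, adjusted p = 0.28 from edgeR), and Cldn20 was past the thresholds in all 7 fits with a library left out, with values from 1.17 to 1.70. Its share of the summed CPM of the 10 claudins averaged 7.85% in the K14;Nogo-A pups and 4.60% in the wild-type pups. Cldn20 lies within Tfb1m, a gene of the opposite strand, without sharing an exon with it. Tfb1m was at 6.10 to 8.78 CPM over the 7 libraries, with a log2 fold change of -0.03, and whether reads from its introns count toward Cldn20 was not tested.

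Cldn23 (chromosome 8, 35824712 to 35826559) had 6 to 13 counts per library and was left out of the test by the filter. It was at 0.369, 0.354, 0.209 and 0.381 CPM in K14;Nogo-A pups 1, 2, 7 and 10 and at 0.310, 0.195 and 0.288 CPM in wild-type pups 3, 8 and 9, and the groups overlapped. In a fit without the filter its log2 fold change was 0.30, with an interval from -0.76 to 1.37, so a difference could not be seen at this depth.

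**Figure D3:**
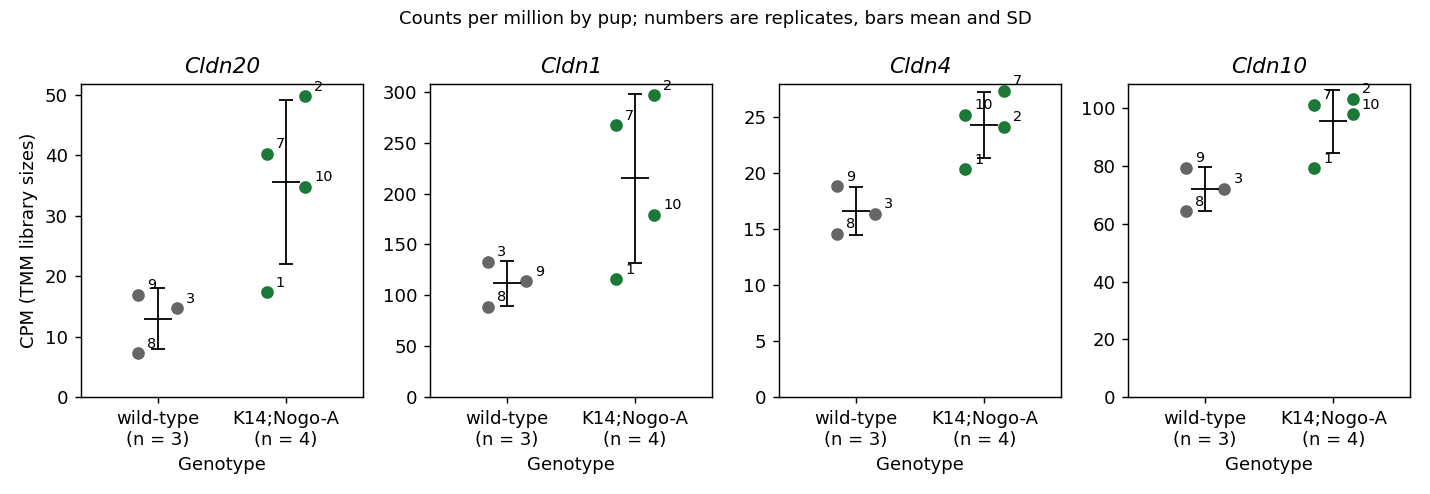
CPM (vertical axis, from 0) of Cldn20, Cldn1, Cldn4 and Cldn10 in each pup, numbered by replicate, with wild-type in grey (n = 3) and K14;Nogo-A in green (n = 4); bars give the mean and SD. K14;Nogo-A pup 1 is the lowest green point in each panel, at 17.4, 116, 20.4 and 79.3 CPM.

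K14;Nogo-A pup 1 was the lowest library of its genotype for Cldn1, Cldn3, Cldn4, Cldn6, Cldn10 and Cldn20, and not for Cldn7, Cldn8, Cldn12 or Cldn23. Without that library, edgeR's quasi-likelihood test called 4 members at an adjusted p under 0.05, all higher in K14;Nogo-A, namely Cldn1 (1.15, adjusted p = 0.030), Cldn4 (0.63, adjusted p = 0.037), Cldn10 (0.49, adjusted p = 0.037) and Cldn20 (1.69, adjusted p = 0.033). In that fit 97 genes, or 0.657% of all, were called higher and 124 lower, against 0 and 5 with every library. Pup 1 was the only K14;Nogo-A pup with Y-linked transcripts, so the fit without it sets 3 pups lacking them against wild-type, where 2 of 3 had them. Its mean log2 CPM of the mesenchyme markers (8.61) was the nearest of its genotype to wild-type, and those of the odontoblast and bone markers (8.73) and the ameloblast markers (7.73) lay within the wild-type range. The part of these differences in the calls was not tested. When K14;Nogo-A pup 7 or, separately, wild-type pup 8 was left out, Cldn20 alone remained past the thresholds.

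**Figure D4:**
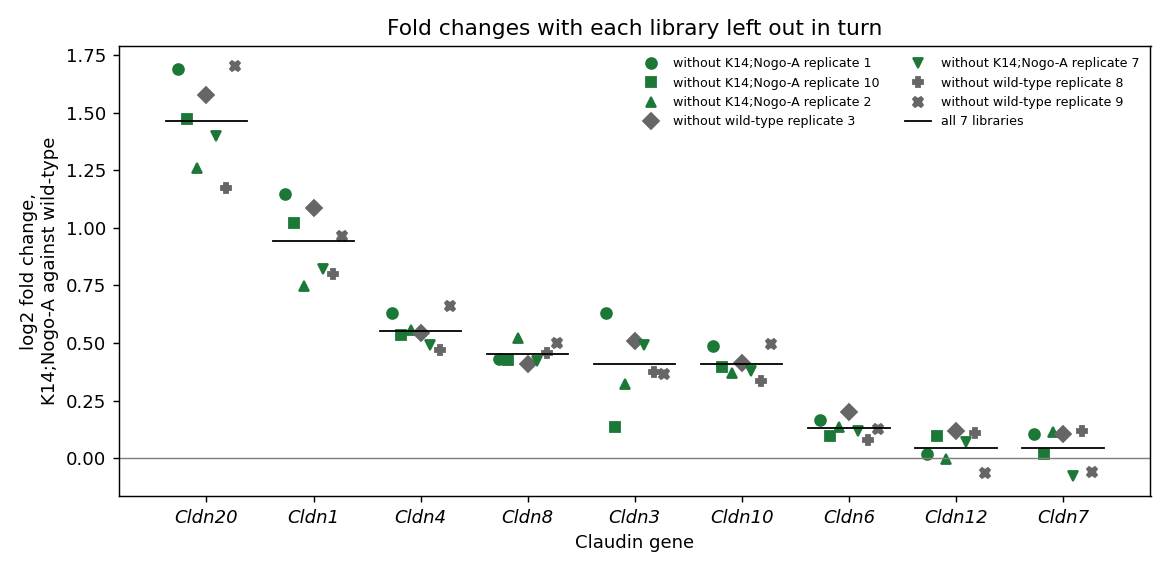
Log2 fold change of each tested claudin (vertical axis) with each of the 7 libraries left out in turn; green marks leave out a K14;Nogo-A library, grey marks a wild-type library, and the black line is the value with all 7. Cldn20 stays between 1.17 and 1.70, whereas Cldn12 and Cldn7 lie on both sides of 0.

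Marker transcripts of cell types differed in level between the genotypes as well. Of the 12 mesenchyme markers 12 had a negative log2 fold change and 2 were lower at the study's thresholds, and their mean log2 CPM ranged from 8.06 to 8.61 in the K14;Nogo-A pups and from 8.86 to 8.99 in the wild-type pups, without overlap. The 7 ameloblast markers were all positive, with 3 higher at the thresholds, and each overlapped between the genotypes. Their summed level also overlapped, at 31399 to 103577 CPM in K14;Nogo-A against 12759 to 40506 CPM in wild-type. Most of it was Amelx, at 26648 to 72659 CPM in K14;Nogo-A and 10444 to 33878 CPM in wild-type. The oral and skin keratinocyte list was low, and its sum was also without overlap. It was 48.9 to 64.0 CPM in the K14;Nogo-A pups and 34.6 to 46.3 CPM in the wild-type pups, with 1 of its 12 genes at 0 in every library. The 11 genes tested were all positive, with a median of 0.41 and 2 higher at the thresholds, but each gene by itself overlapped between the genotypes. Of the 12 epithelium markers 11 were positive and 2 higher at the thresholds, and the genotypes overlapped. Over all genes 48.5% were positive, and 2.02% were higher and 2.74% lower at the thresholds. The odontoblast and bone, endothelium and immune lists had negative medians (-0.71, -0.51 and -0.30), as had the Schwann cell list (-0.33), while of 6 airway, gland and gut markers 1 could be tested. In bulk RNA, fewer cells of a type and less RNA per cell cannot be told apart, and the part of these markers in the claudin values was not tested beyond the fits that follow.

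With the epithelium markers as a covariate, the log2 fold change of Cldn20 was 0.65 in place of 1.46 and still past the thresholds, whereas Cldn1 had 0.47 and Cldn4 0.35 and were not. With the mesenchyme markers as a covariate no claudin was past them. Cldn20 then had -0.09, Cldn1 -0.54, Cldn10 0.00 and Cldn4 0.20, while Cldn8 had 0.64. Since mesenchyme markers and genotype part the libraries alike, that fit rests on extrapolation. With Y-linked levels as the covariate, Cldn20 had 1.02 and was past the thresholds, and Cldn4 had 0.42 and Cldn1 0.63 and were not. Compared only among libraries with Y-linked transcripts (1 against 2), the difference in mean log2 CPM was 0.10 for Cldn1, 0.39 for Cldn4, 0.74 for Cldn20 and -0.66 for Cldn3. Among libraries without them (3 against 1), it was 1.09, 0.44, 1.27 and 0.68. Neither subset allows a test of its own.

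**Figure D5:**
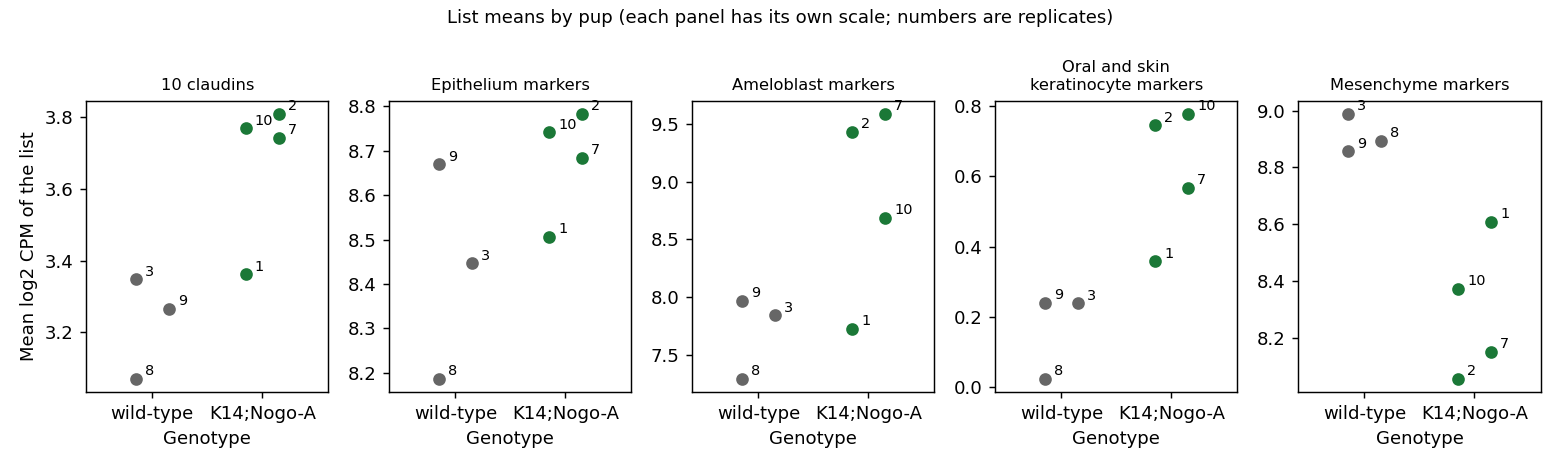
Mean log2 CPM (vertical axis, own scale in each panel) of the 10 claudins and of 4 marker lists in each pup, numbered by replicate, with wild-type in grey and K14;Nogo-A in green. The claudin means of K14;Nogo-A pups 2, 7 and 10 lie at 3.74 to 3.81 and that of pup 1 at 3.36, beside 3.07 to 3.35 in wild-type; the mesenchyme markers run the other way.

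Few of the claudins that are no members passed the filter on low counts. Of 23 further claudin genes, 11 were at 0 in every library, 8 had at most 12 counts in any library and 4 were tested, and none of the 4 was past the thresholds in either direction. Cldn5, the claudin of blood vessel walls, was at 7.78 ± 2.34 CPM in the K14;Nogo-A pups (SD, n = 4) and 8.85 ± 2.18 CPM in the wild-type pups (SD, n = 3). The 6 endothelial markers to which it belongs were all negative, with 4 lower at the thresholds, against 2.74% of all genes. Cldn17, which forms anion pores, was at 5.42 ± 1.28 and 4.81 ± 0.455 CPM, and Cldn11, a claudin of myelin, at 1.54 ± 0.897 and 2.29 ± 1.25 CPM. The fourth was Cldn34c1, at 2.47 ± 0.693 and 2.57 ± 0.399 CPM. Cldn18 of lung and stomach had no count in any library.

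Among the other parts of the tight junction, both directions occurred. Of a list of 39 names, 38 matched a counted gene and were tested; 3 passed the study's thresholds upwards and 2 downwards, with 19 positive and 19 negative values and a median of 0.00. Over all genes 4.77% were past the thresholds in either direction. Crb3, which marks the apical side of epithelial cells, was at 8.10 ± 0.939 CPM in K14;Nogo-A (SD, n = 4) and 5.16 ± 1.09 CPM in wild-type (SD, n = 3), with a log2 fold change of 0.65 (standard error 0.19). Cgn, the junction's inner plaque protein cingulin, had 0.69 and the tetraspanin gene Tspan15 0.55. On the lower side, Jam3, an adhesion molecule also made by mesenchymal and endothelial cells, was at 21.9 ± 2.67 CPM against 31.5 ± 3.15 CPM, with a log2 fold change of -0.52 (standard error 0.12), and Igsf5 (JAM4) had -0.73. The genotypes did not overlap in 6 of the 38, with K14;Nogo-A above in Crb3, Cgn and Lsr and below in Jam3, Igsf5 and Cgnl1. Over all genes 11.5% did not overlap. The highest members of the list per length were Ybx3 at 95.7, Epcam at 79.0 and Lsr at 49.2 RPKM. Their log2 fold changes were 0.10, 0.04 and 0.17.

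Genes that cut, stabilise or phosphorylate claudins were taken as a further list of 11, of which 9 were positive, with 2 higher and 0 lower at the thresholds and a median of 0.37. Over all genes 48.5% were positive and 2.02% higher at the thresholds. Wnk4, a kinase that acts on claudins in the kidney, had a log2 fold change of 0.56, at 32.2 ± 5.31 CPM (SD, n = 4) and 22.1 ± 8.11 CPM (SD, n = 3). Klk4, a protease of maturing enamel, had 1.27 (standard error 0.51), from 32 to 220 counts per library. It was at 1.85, 5.39, 7.67 and 1.95 CPM in K14;Nogo-A pups 1, 2, 7 and 10. In wild-type pups 3, 8 and 9 it was at 2.34, 1.34 and 1.54 CPM. K14;Nogo-A pups 1 and 10 thus lay within the wild-type range. Klk4 and Mmp20 are on the ameloblast list above as well.

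The genes whose levels followed the claudins most closely were Mreg, Gdf5, Hap1, Hfe and Tor3a. Their Pearson correlation with the mean log2 CPM of the 8 members at 1 CPM or more was 0.99, 0.99, 0.99, 0.99 and 0.98 over the 7 libraries, out of 11825 genes compared. Among single members, Cldn1 had its closest match in F11r, the junction adhesion molecule JAM-A, at 0.99, a pair chosen after the values were seen. These figures describe 7 points that share genotype, tissue makeup and library, and no test was made of them.

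The stretches before the starts of Cldn1 and Cldn4 are shown because both genes were past the thresholds and have 1 start each in the RefSeq table. Cldn20 meets the same terms but is not shown, since its annotated model begins at the start codon, so that the bases before it need not lie before a transcript start. Its stretch held 1 CCAAT, a motif in 33.85% of all stretches, and none of the other motifs searched. Each is the 250 bases before the annotated start (RefSeq, GRCm38.p6), written 5′ to 3′ along the gene. Capitals mark matches on either strand to GGGCGG (GC box), TGANTCA (AP-1) or CAGGTG (Snail-type E-box), the motifs found out of these and TATAAA, AACCNGTT (Grainyhead) and CCAAT.
Cldn1, chr16:26371840-26372089, minus strand: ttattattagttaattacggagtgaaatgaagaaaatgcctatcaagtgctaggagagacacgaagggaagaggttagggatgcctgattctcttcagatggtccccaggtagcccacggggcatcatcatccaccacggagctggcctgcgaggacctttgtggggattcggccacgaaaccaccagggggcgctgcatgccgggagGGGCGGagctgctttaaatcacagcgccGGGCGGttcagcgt
Cldn4, chr5:134946935-134947184, minus strand: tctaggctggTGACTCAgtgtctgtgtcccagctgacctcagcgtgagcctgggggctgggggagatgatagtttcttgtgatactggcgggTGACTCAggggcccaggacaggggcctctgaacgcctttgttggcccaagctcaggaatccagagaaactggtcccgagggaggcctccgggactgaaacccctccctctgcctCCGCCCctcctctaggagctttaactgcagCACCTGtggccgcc

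The Cldn1 stretch held 2 GC boxes, a motif that 32.7% of all 32851 RefSeq promoter stretches of this length hold. The Cldn4 stretch held 1 GC box, 2 AP-1 motifs and 1 E-box, which occur in 32.7%, 6.75% and 17.2% of them. A match describes the letters only. Cldn8 and Cldn23 have no entry in the table used.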

How the data were processed

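The authors deposited raw read counts for each Ensembl gene. According to the submitters' processing notes, bcl2fastq 2.19, Trimmomatic, STAR 2.7.1 and featureCounts were used with GRCm38, whereas the paper names fastp for adapter removal. The labels name a stranded kit and the paper TruSeq v2, and no source used here gives featureCounts' strand option. IDs were joined to GENCODE M21 (GRCm38), and 25664 of 25700 matched, the other 36 holding 0.0348% of the counts. Genes with 10 counts or more in at least 50% of a genotype's libraries were kept (14791). K14;Nogo-A (n = 4 pups) was compared with wild-type (n = 3 pups) by edgeR 4.0.16 in R 4.3.3, with TMM and the robust quasi-likelihood test, without covariates, and Benjamini-Hochberg adjustment. Standard errors and 95% intervals come from that fit, and log2 CPM used a prior count of 2. RPKM divides CPM by the summed exon length. The test was tried on simulated counts first. The depth was 20929207 to 41219439 counts per library, and the closest pair of libraries differed by a chi-square of 16.6 per degree of freedom, so none was treated as a repeat of another.

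All 10 members are named, with further claudins of at least 1 CPM, junction genes past the thresholds, the 3 highest junction genes per length and the 5 genes of most similar pattern. Members, lists and tests were chosen with earlier results of these data known. The alternatives were RLE and upper-quartile factors, the likelihood-ratio test, DESeq2 1.42.0, limma-voom 3.58.1, 2 other filters, 3 covariates, thinned counts, 2 other thresholds and each library left out.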

Additional observations from a re-analysis of the deposited data

Results flagged for a closer look

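Within the 4 K14;Nogo-A libraries, a library far from the rest was found in 2 of the 10 claudins. For Cldn8 it was replicate 2 at 7.69 CPM, below the 9.55 to 9.63 CPM of the others, and its gap to the nearest of them was 0.963 of the group's whole range. For Cldn23 it was replicate 7 at 0.209 CPM, with a gap of 0.838 of the range, and this gene had only 6 to 13 counts per library. Chance alone marks about 1 in 20 such groups.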

How the results depend on the processing

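No paired analysis was made. Each replicate number stands for 1 pup, and the sample titles link no K14;Nogo-A pup to a wild-type pup. RLE and upper-quartile factors, the likelihood-ratio test, DESeq2, limma-voom, both filters and thinned counts each left Cldn1, Cldn4 and Cldn20 past the study's thresholds. The number of claudins higher at these thresholds was 3 in the main fit, 0 with the mesenchyme markers, 1 with the epithelium markers, 1 with the Y-linked covariate, 5 with no minimum fold change, and 1 to 4 with a library left out. At an adjusted p under 0.05 it was 0, 1 by the likelihood-ratio test and by DESeq2 (Cldn4 in both), and 0 to 4 with a library left out. Over 161 fits of the members, 140 kept direction and side of the thresholds, a count that includes members staying under them. Cldn1 was past the thresholds in 12 of its 18 alternative fits, Cldn4 in 13 of 18 and Cldn20 in 17 of 18.

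Values of the opposite sign were found with the mesenchyme covariate for Cldn1 (-0.54), Cldn3 (-0.28), Cldn7 (-0.077) and Cldn20 (-0.092), and with thinned counts for Cldn7 (-0.10). With a library left out, Cldn7 ranged from -0.076 to 0.117 and Cldn12 from -0.063 to 0.116. Cldn7 was negative without K14;Nogo-A pup 7 and wild-type pup 9 in turn, and Cldn12 without K14;Nogo-A pup 2 and wild-type pup 9. The cause was not tested.

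Over all genes, 299 higher and 406 lower became 120 and 214 with the epithelium covariate and 702 lower with the mesenchyme covariate, and 146 to 542 higher and 240 to 545 lower with a library left out. At an adjusted p under 0.05, 0 higher and 5 lower became 58 and 108 by the likelihood-ratio test, 148 and 169 by DESeq2, 1 and 20 with no filter, 0 lower with the mesenchyme or the epithelium covariate, 9 lower with the Y-linked covariate, and 0 to 97 higher and 0 to 124 lower with a library left out. Depth limits Cldn3 and Cldn23.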
